A study of Homo sapiens with 8 samples.

Results

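The 123 genes described here encode the mitochondrial ribosomal proteins and the mitochondrial carriers, among the 30755 gene symbols measured by RNA-seq in ESO26, a long-established line of oesophageal adenocarcinoma cells. The members were chosen by symbol alone: 76 genes named MRPL or MRPS with a number, and 47 genes named SLC25A with a number. The rule uses no expression value, though it was set with earlier results of these data known, and the 2 groups are given apart. Expression was compared between 2 conditions, each with 2 libraries. These were cells treated with small interfering RNA (siRNA) against HNF4A, a DNA-binding nuclear receptor of liver and gut epithelium, and control cells of the same line in the same growth medium. What the control cells received and the time after transfection are not described in the labels. The titles of the siHNF4A libraries end in B1 and B2 and do not say whether both had the same siRNA. No other line or siRNA target has RNA-seq here, so any result is for 1 line and 1 target gene. The labels do not say whether libraries came from separate cultures, so p-values measure only the spread between these libraries, which may be technical.

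Mitochondria keep a ribosome of their own, which translates only the few proteins encoded in mitochondrial DNA, all of them in the respiratory chain and ATP synthase. Every protein of that ribosome is encoded in the nucleus and imported, some with a counterpart in bacterial ribosomes and others found only in mitochondria. Carriers of the SLC25 family span the inner mitochondrial membrane, with a few in other membranes, and exchange nucleotides, carboxylates, amino acids, cofactors and phosphate between the matrix and the cytosol.

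Normalized counts, the deposited unit, summed over all 30755 symbols to between 17912507 and 18613685 per library, and the depth in reads is unknown. HNF4A had 4129 and 3937 normalized counts in control libraries 1 and 2 and 1140 and 932 in siHNF4A libraries 1 and 2, or 4033 ± 136 against 1036 ± 147 (SD, n = 2). The knockdown libraries thus held 25.7% of the control level, a log2 fold change of -1.97 ± 0.10 (SE, limma adjusted p = 1.59e-05). The columnar epithelial markers EPCAM, CDH1, KRT8, KRT18, KRT19, CLDN3 and CLDN4 lay between 4296 and 30712 in every library and summed to 94068 and 99878 in the controls and 85639 and 85546 after knockdown. Both knockdown libraries were below both controls in 5 of these 7 and above both in CDH1 and KRT19. Markers of squamous, immune, endothelial and fibroblast cells (11 genes) lay between 0 and 212, and summed to 309 and 214 in the controls and 337 and 375 after knockdown. Of these, KRT14, VWF and COL1A1 were above both controls in both knockdown libraries, KRT5 and KRT13 below, and PTPRC was at 0 to 2.05. The part of these markers in the results below was not tested.

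All 76 mitochondrial ribosomal protein genes passed the minimum mean of 10 normalized counts and were tested. With HNF4A lowered, 8 of them fell and 0 rose by limma at an adjusted p under 0.05 over the 15577 genes tested. That is 10.5% called lower, near the 8.11% of all genes tested that were called lower, and 6.02% of all genes were called higher. Without adjustment, p was under 0.05 for 19 lower and 2 higher ribosomal protein genes (16.1% and 12.8% of all genes tested). The group was shifted by a small amount: 63 of 76 log2 fold changes were below 0, with a median of -0.14 (quartiles -0.22 and -0.05), beside a median of -0.01 for all genes tested (quartiles -0.19 and 0.21, with 51.0% below 0). Both knockdown libraries were below both control libraries for 46 of the 76 genes (60.5%, against 30.1% of all genes tested), and above both for 3 (26.9% of all genes tested lay above). Of the 76, 75 average 200 normalized counts or more, and the share of all genes separated at that level was not taken. In bulk RNA, fewer cells of a type and less RNA per cell cannot be told apart.

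The shift of the ribosomal protein genes was close in size to their difference between replicates. Control 2 was above control 1 for 63 of 76 genes, with a median log2 difference of 0.11, whereas siHNF4A 2 was above siHNF4A 1 for 23, with a median of -0.05. Over all 15577 genes tested the same counts were 8475 and 7487, with medians of 0.02 and -0.01. Their summed normalized counts took 0.462% and 0.483% of the library in controls 1 and 2 and 0.452% and 0.436% in siHNF4A libraries 1 and 2. Both knockdown libraries were thus lowest, but against control 1 alone the median log2 difference was -0.09 and against control 2 alone it was -0.20. The plot of differences between replicates and between groups shows these medians side by side. What sets the controls apart from each other was not tested.

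**Figure D1:**
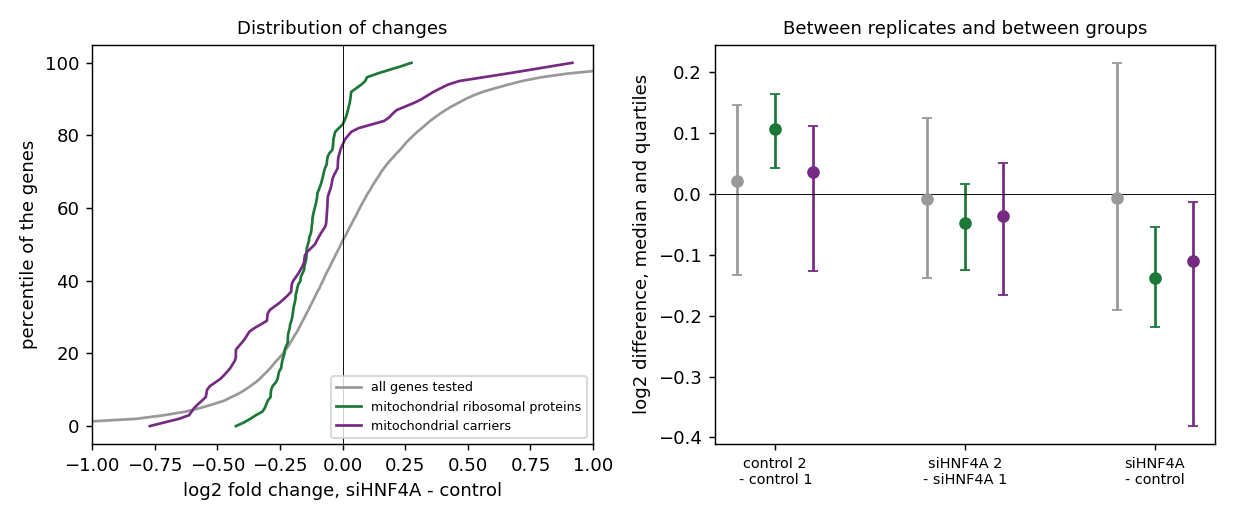
Left, percentiles of the log2 fold change (siHNF4A minus control) for 76 mitochondrial ribosomal protein genes, 39 tested carrier genes and all 15577 genes tested, drawn from -1 to 1. Right, the median (point) and quartiles (bars) of the log2 difference between the control replicates, between the siHNF4A replicates and between the groups: the ribosomal protein median is 0.11 between controls and -0.14 between groups, and the carrier quartiles between groups reach from -0.38 to -0.01.

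By place in the ribosome, 49 genes encode proteins of the large subunit, which joins amino acids, and 26 those of the small subunit, which reads the mRNA. MRPS30 and MRPS18A are counted with the large subunit, where their proteins sit in the human ribosome. MRPS36, with a log2 fold change of -0.15 (limma adjusted p = 0.589), is counted in neither, because its protein belongs to the 2-oxoglutarate dehydrogenase complex. In the large subunit 6 of 49 genes fell (12.2%, median log2 fold change -0.14) and in the small subunit 2 of 26 fell (7.69%, median -0.10). These shares lie near the 8.11% of all genes tested that were called lower (12.1% of all genes averaging 200 normalized counts or more). Proteins with a bacterial counterpart and proteins specific to mitochondria had like medians in the large subunit, -0.14 in both, with 3 of 30 and 3 of 19 called lower. In the small subunit the medians were -0.09 and -0.15, with 1 of 16 and 1 of 10 called lower.

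**Figure D2:**
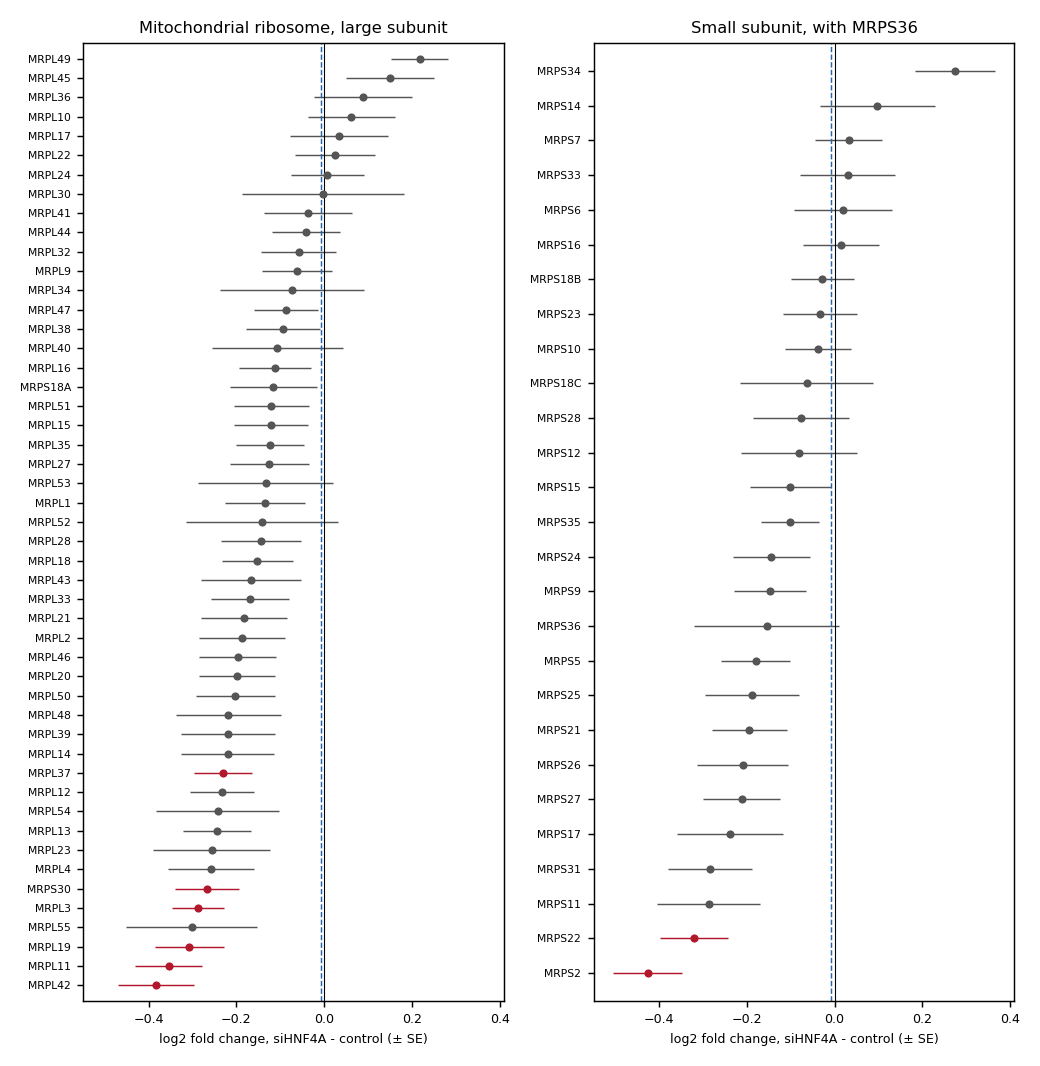
Log2 fold change (siHNF4A minus control, point) and its SE (bar) from limma for each of the 76 mitochondrial ribosomal protein genes, large subunit left, small subunit and MRPS36 right. Red marks the 8 called genes, which run from -0.43 to -0.23, the dashed line is the median of all genes tested, and 13 genes lie above 0.

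The largest fall was that of MRPS2, a small-subunit protein with a bacterial counterpart. It had 1668 and 1823 normalized counts in the controls against 1312 and 1282 after knockdown, a log2 fold change of -0.43 ± 0.08 (SE, limma adjusted p = 0.00702). MRPS22, a small-subunit protein found only in mitochondria, had 1331 and 1325 in the controls and 1051 and 1076 after knockdown (-0.32 ± 0.08, limma adjusted p = 0.0241). In both genes the 2 knockdown libraries were below the 2 controls, and the MRPS22 controls were nearly equal. Among large-subunit genes, MRPL42, specific to mitochondria, had 968 and 976 in the controls and 737 and 753 after knockdown (-0.38 ± 0.09, limma adjusted p = 0.0169). MRPL11, at the base of the stalk that binds translation factors, had 1586 and 1694 against 1276 and 1286 (-0.35 ± 0.08, limma adjusted p = 0.0143). Neither gene's groups overlapped, and the knockdown libraries of each were nearly equal. MRPL19 had 2074 and 2243 in the controls against 1821 and 1668 after knockdown (-0.31 ± 0.08, limma adjusted p = 0.0292). MRPL3, near the peptidyl transferase centre, had 4385 and 4485 against 3674 and 3592 (-0.29 ± 0.06, limma adjusted p = 0.0115). These groups did not overlap either, with the knockdown libraries of MRPL19 further apart than those of MRPL3. In genes called on these same libraries such separation adds little to the call. The remaining called genes were MRPS30 (-0.27, limma adjusted p = 0.0372) and MRPL37 (-0.23, limma adjusted p = 0.0457), both large-subunit proteins specific to mitochondria.

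**Figure D3:**
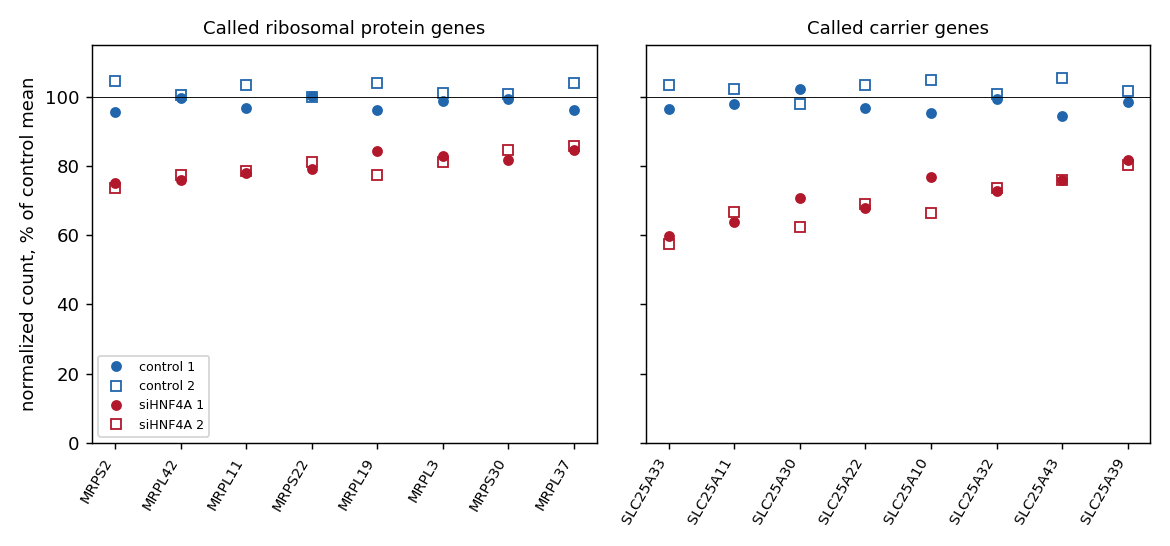
Normalized count of each library as a percentage of the control mean, for the 8 called ribosomal protein genes (left) and 8 of the 9 called carrier genes (right), with controls in blue and siHNF4A libraries in red (replicate 1 filled, replicate 2 open). In every gene shown both knockdown libraries lie below both controls, from 58.6% of the control mean in SLC25A33 to 85.1% in MRPL37 when the knockdown libraries are averaged. The genes were called on these same libraries, so this separation largely follows from the choice, and 30.1% of all genes tested separate likewise.

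The number of calls moved with the library left out, which leaves 1 library in an arm that limma assumes to vary like the others. Without siHNF4A 2 limma called 0 of the 76 genes (11 with an unadjusted p under 0.05, beside 21.7% of all genes tested in that setting), without siHNF4A 1 it called 2, without control 2 it called 4 and without control 1 it called 8, with MRPS30 lost. Calls over all genes fell as well, from 2202 to 906 without siHNF4A 2, where the log2 fold changes of MRPL42, MRPL11 and MRPS22 were -0.40, -0.36 and -0.34 and that of MRPL19 was -0.24. Of the 8 genes, MRPS2 alone was still called without siHNF4A 1, and without control 2 MRPS2, MRPL42 and MRPL3 were. The calls without control 2 were not all falls, because MRPS34 was called higher there. With 1 variance prior for all expression levels in limma, 0 were called (8 with an unadjusted p under 0.05, beside 22.6% of all genes tested). Among the 75 ribosomal protein genes averaging 200 normalized counts or more, 8 fell (10.7%), against 12.1% of all genes at that level called lower and 7.87% called higher. At that level 82.7% of the ribosomal protein genes were below 0, with a median of -0.14, beside 57.1% and a median of -0.04 for all genes.

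The highest log2 fold changes in the group were those of MRPS34 and MRPL49, named after their values were seen. MRPS34, of the small subunit, had 1119 and 1308 normalized counts in the controls and 1489 and 1440 after knockdown (0.27 ± 0.09, limma adjusted p = 0.0762). MRPL49, of the large subunit, had 2420 and 2513 against 2903 and 2832 (0.22 ± 0.07, limma adjusted p = 0.0532). Both knockdown libraries were above both controls in each gene, and both genes were called higher when libraries were rescaled to equal sums or quantile normalized. In the RefSeq annotation MRPS34 overlaps EME2 and MRPL49 overlaps SYVN1, and whether the counting used strand is not given in the sources used here, so reads of these neighbours cannot be told apart. Another 30 ribosomal protein genes overlap a RefSeq gene, among them the called genes MRPS2, MRPL42, MRPL19, MRPL3 and MRPL37.

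Promoter sequences (250 bases before to 50 from the start site, RefSeq, GRCh38.p14) were matched for 67 of the 76 ribosomal protein genes and searched on both strands for core motifs. For a gene with several entries only the first was used, so matches at its other start sites are not counted. The ETS core CCGGAAG, read by GABP and related factors, was in 28 of them (41.8%), against 18.7% of the 10084 tested genes with a promoter and 10.7% of all 27305. The core AAGATGGCG of YY1, a zinc-finger factor that binds close to start sites, was in 13 (19.4%), against 3.86% and 1.85%. In 10 of those 13 it stood after the start site on the gene's own strand, as in 260 of the 389 tested genes that have it (66.8%). The core GCATGCGC of NRF1, a regulator of nuclear genes for mitochondria, was in 6 (8.96%, against 5.33% of tested genes), and the GC box GGGCGG in 61.2% (against 69.0%). The HNF4 sequences CAAAGTCCA and CAAAGGTCA were in 0 of the 67, and in 0.317% and 0.268% of tested genes. A match describes letters in the window and not a bound site. No motif contains another, but the ETS and YY1 cores can share the letters AAG.

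All 8 called ribosomal protein genes have a promoter entry, of which 2 hold the ETS core (MRPL3 and MRPS22) and 2 the YY1 core (MRPL42 and MRPS30), while the GC box is in 1 and the E-box CACGTG in 1. The stretches of the genes named are shown because they hold these matches near the start site, in capitals on either strand, counting the start site as position 0. MRPS22 has 3 promoter entries, of which the first is shown. MRPL42 (chr12:93467464-93467563, plus strand, positions -50 to 49) has the YY1 core at 8 and MRPS30 (chr5:44808897-44808996, plus strand, positions -50 to 49) at 13. MRPL3 (chr3:131502972-131503071, minus strand, positions -100 to -1) has the ETS core at -32. MRPS22 (chr3:139343894-139344043, plus strand, positions -100 to 49) has it at -87 and, reversed, at -79 and 5.
MRPL42: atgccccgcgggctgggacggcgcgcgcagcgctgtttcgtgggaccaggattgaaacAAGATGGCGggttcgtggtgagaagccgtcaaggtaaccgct
MRPS30: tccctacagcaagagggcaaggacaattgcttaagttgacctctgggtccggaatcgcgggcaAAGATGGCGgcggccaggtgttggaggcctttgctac
MRPL3: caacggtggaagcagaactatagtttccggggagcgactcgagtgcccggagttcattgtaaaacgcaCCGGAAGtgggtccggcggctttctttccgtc
MRPS22: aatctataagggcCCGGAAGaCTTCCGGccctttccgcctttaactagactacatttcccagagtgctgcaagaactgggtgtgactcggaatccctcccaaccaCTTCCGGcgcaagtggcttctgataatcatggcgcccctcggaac

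Of the 47 carrier genes, 39 reached a mean of 10 normalized counts and were tested. In the knockdown libraries 9 of them fell and 0 rose by limma, which is 23.1% called lower beside the 8.11% of all genes tested. Without adjustment, p was under 0.05 for 17 lower and 3 higher carriers (16.1% and 12.8% of all genes tested). The median log2 fold change was -0.11 (quartiles -0.38 and -0.01), with 30 of 39 below 0 (51.0% of all genes tested). Both knockdown libraries were below both controls in 21 (53.8%, against 30.1% of all genes tested) and above both in 5 (against 26.9% of all genes tested). The share of all genes separated was not taken at the level of these carriers. Carriers were more spread than ribosomal protein genes, with an SD of log2 fold changes of 0.35 against 0.13 (0.43 over all genes tested). Among carriers averaging 200 normalized counts or more 9 of 30 fell (30.0%), beside the 12.1% of all genes at that level, and their median was -0.19, beside -0.04. Between replicates, the median carrier difference was 0.04 (SD 0.19) for control 2 minus control 1 and -0.04 (SD 0.28) for siHNF4A 2 minus siHNF4A 1, a wider spread than the SDs of 0.12 and 0.14 of the ribosomal protein genes. Summed, carriers took 0.248% and 0.250% of the library in the controls and 0.224% and 0.219% after knockdown, so that both knockdown sums were below both control sums.

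**Figure D4:**
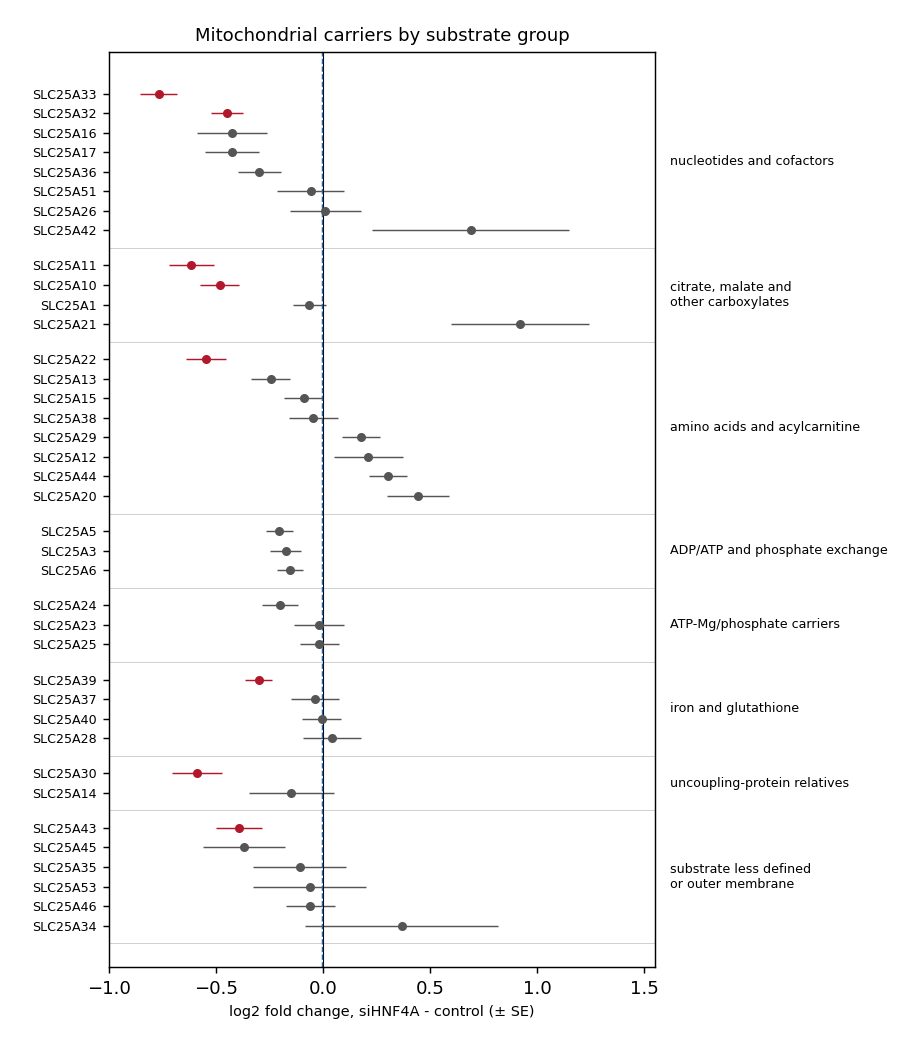
Log2 fold change (siHNF4A minus control, point) and its SE (bar) from limma for 38 of the 39 carriers tested, grouped by substrate, with 8 of the 9 called genes in red and the median of all genes tested as a dashed line. Called carriers appear in 6 of the 8 substrate groups, and the widest bars belong to SLC25A42, SLC25A34 and SLC25A21.

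Among carriers of nucleotides and cofactors, 3 of 9 fell, beside 8.11% of all genes tested called lower, and the median log2 fold change was -0.43. The groups by substrate hold 9 tested genes at most, so each share rests on few genes. The largest fall of any carrier was that of SLC25A33, which moves pyrimidine nucleotides into the matrix. It had 1216 and 1302 normalized counts in the controls and 753 and 723 after knockdown, or 58.6% of the control level (-0.77 ± 0.09, limma adjusted p = 0.000658). SLC25A32, the folate and FAD carrier, had 1737 and 1761 against 1273 and 1287 (-0.45 ± 0.07, limma adjusted p = 0.00396). In both genes the groups were far apart compared with the gap between replicates. SLC25A36, the other pyrimidine nucleotide carrier, had 3187 and 2564 in the controls and 2223 and 2429 after knockdown (-0.30, limma adjusted p = 0.0769), with the controls far apart. The peroxisomal carrier SLC25A17 had a log2 fold change of -0.43 (limma adjusted p = 0.0506), while SLC25A51, the NAD carrier, and SLC25A26, the S-adenosylmethionine carrier, were at -0.06 and 0.01. SLC25A42, a coenzyme A carrier, had 34.3 and 26.4 in the controls and 84.6 and 28.3 after knockdown, so its log2 fold change of 0.69 (limma adjusted p = 0.364) rests on siHNF4A 1.

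Of 4 carboxylate carriers 2 fell, beside 8.11% of all genes tested called lower, a share that rests on few genes. SLC25A11, which exchanges oxoglutarate for malate in the malate-aspartate shuttle, had 601 and 628 normalized counts in the controls and 392 and 409 after knockdown (-0.62 ± 0.10, limma adjusted p = 0.00485). SLC25A10, the dicarboxylate carrier, had 1828 and 2009 against 1473 and 1273 (-0.48 ± 0.09, limma adjusted p = 0.00749). Groups did not overlap in either gene, with a wider gap between replicates in SLC25A10. The citrate carrier SLC25A1 was at -0.07 (limma adjusted p = 0.624), with 1371 and 1454 against 1369 and 1329. SLC25A21, which carries oxodicarboxylates, had the highest log2 fold change of the group, 0.92 (limma adjusted p = 0.0909), at 27.7 and 20.9 against 51.8 and 41.4. Its groups did not overlap, but its values were low, and in RefSeq it overlaps SLC25A21-AS1 and PAX9.

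Among carriers of amino acids and acylcarnitine, 1 of 8 tested fell (12.5%, beside 8.11% of all genes tested) and the median log2 fold change was 0.07. That gene was SLC25A22, a glutamate carrier, with 866 and 926 normalized counts in the controls and 607 and 618 after knockdown (-0.55 ± 0.09, limma adjusted p = 0.00476). It overlaps PANO1 in RefSeq. The aspartate-glutamate carriers of the malate-aspartate shuttle, SLC25A13 and SLC25A12, were at -0.25 and 0.21 (limma adjusted p = 0.0994 and 0.429). Of the carriers with higher values, SLC25A44, which takes branched-chain amino acids, had 774 and 844 in the controls and 984 and 1010 after knockdown (0.30 ± 0.09, limma adjusted p = 0.0502). SLC25A20, the carnitine-acylcarnitine carrier of fatty acid oxidation, had 210 and 249 against 331 and 293 (0.44 ± 0.15, limma adjusted p = 0.0744). In both genes the knockdown libraries were above both controls, and neither passed the test. SLC25A44 was called higher when libraries were rescaled in any of the 3 ways tried.

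The ADP/ATP carriers exchange matrix ATP for cytosolic ADP, and the phosphate carrier SLC25A3 supplies the phosphate for its synthesis. SLC25A5 had 6882 and 7407 normalized counts in the controls and 6415 and 5974 after knockdown (-0.21 ± 0.06, limma adjusted p = 0.0571). SLC25A6 had 5688 and 6152 against 5384 and 5246 (-0.15 ± 0.06, limma adjusted p = 0.129). SLC25A3 had 4067 and 4384 against 3954 and 3535 (-0.18 ± 0.07, limma adjusted p = 0.146). In these 3 genes both knockdown libraries were below both controls, as in 30.1% of all genes tested, and control 2 was above control 1. By limma 0 of the 3 were called, and all 3 were lower with an unadjusted p under 0.05, as were 16.1% of all genes tested. For SLC25A5 the limma adjusted p was 0.0203 without control 1, 0.211 without control 2, 0.103 without siHNF4A 1 and 0.314 without siHNF4A 2. The other ADP/ATP carriers, SLC25A4, the form of muscle and heart, and SLC25A31, the form of testis, were at 6.38 to 10.4 and at 0 to 1.22 and were not tested.

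In the remaining groups, 3 carriers fell, beside 8.11% of all genes tested called lower. They were 1 of 4 carriers of iron and glutathione, 1 of 2 uncoupling-protein relatives and 1 of 6 others. SLC25A39, a glutathione carrier, had 2885 and 2975 normalized counts in the controls and 2397 and 2354 after knockdown (-0.30 ± 0.06, limma adjusted p = 0.0135). Its close relative SLC25A40 was at -0.01 (limma adjusted p = 0.967), and the iron carriers SLC25A37 and SLC25A28 were at -0.04 and 0.04. SLC25A30, related to the uncoupling proteins, had 569 and 544 against 393 and 347 (-0.59 ± 0.11, limma adjusted p = 0.00874) and overlaps its antisense gene SLC25A30-AS1. SLC25A43, whose substrate is not settled, had 588 and 657 against 473 and 474 (-0.39 ± 0.11, limma adjusted p = 0.0357). No groups overlapped in these 3 called genes. Of the 3 tested ATP-Mg/phosphate carriers 0 were called by limma. Of them 1 was lower with an unadjusted p under 0.05 (16.1% of all genes tested), with SLC25A24 at -0.20.

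Of the 9 called carriers, 4 (SLC25A33, SLC25A11, SLC25A22 and SLC25A32) were called whichever library was left out. Without siHNF4A 2 limma called 5 carriers, losing SLC25A10, SLC25A30, SLC25A39 and SLC25A43, and without siHNF4A 1 it called 6, with SLC25A39 and SLC25A43 among those lost. Without control 2 SLC25A43 was lost. With 1 variance prior for all expression levels in limma, 0 were called (15 with an unadjusted p under 0.05, beside 22.6% of all genes tested). Besides SLC25A4 and SLC25A31, the untested carriers were SLC25A2, SLC25A18, SLC25A27, SLC25A41, SLC25A47 and SLC25A48, with no library above 15.3. Of these, SLC25A27, a neuronal relative of the uncoupling proteins, had 6.32 and 5.71 in the controls and 12.2 and 12.7 after knockdown, so both knockdown libraries were higher. As with the ribosomal protein genes, 30 of the 47 carriers overlap a RefSeq gene, among them SLC25A22, SLC25A30, SLC25A33 and SLC25A43.

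Promoters were matched for 39 of the 47 carriers, of which 33 were among the tested genes and 6 were called. Of the 33, the ETS core was in 6 (18.2%, against 18.7% of tested genes), the YY1 core in 1 (3.03%), the NRF1 core in 0, the GC box in 25 (75.8%) and the E-box CACGTG in 6 (18.2%, against 9.98% of tested genes and 8.96% of ribosomal protein genes). Of the 6 called carriers with an entry, 5 hold a GC box, 1 an E-box and 0 the ETS core, and 0 of all 39 hold either HNF4 sequence. The promoters of SLC25A33, the carrier that fell most, and SLC25A39, the one that fell least, are shown to set beside those of the ribosomal protein genes. SLC25A33 (chr1:9539215-9539514, plus strand, positions -250 to 49) has GC boxes reversed at -158, -134 and -71 and an E-box at -26. SLC25A39 (chr17:44324774-44325073, minus strand, positions -250 to 49) has GC boxes at -135, -114, -98, -51 and -25. Capitals mark the matches.
SLC25A33: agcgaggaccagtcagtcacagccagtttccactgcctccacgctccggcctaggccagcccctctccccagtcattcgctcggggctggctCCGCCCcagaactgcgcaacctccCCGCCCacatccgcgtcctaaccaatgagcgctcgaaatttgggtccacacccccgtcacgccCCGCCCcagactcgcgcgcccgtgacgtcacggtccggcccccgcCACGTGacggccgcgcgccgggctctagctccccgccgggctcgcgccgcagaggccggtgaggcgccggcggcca
SLC25A39: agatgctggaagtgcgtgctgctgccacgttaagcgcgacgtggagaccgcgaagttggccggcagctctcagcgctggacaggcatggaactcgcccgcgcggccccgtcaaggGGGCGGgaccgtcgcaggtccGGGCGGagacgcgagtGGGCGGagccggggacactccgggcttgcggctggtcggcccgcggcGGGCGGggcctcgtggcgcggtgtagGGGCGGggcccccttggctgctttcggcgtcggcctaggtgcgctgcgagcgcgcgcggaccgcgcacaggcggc

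Genes that work with these proteins were taken from lists chosen by function, whose counts stand beside 8.11% of all genes tested called lower and 6.02% called higher. Of 7 ribosome subunits under other symbols 0 were called by limma (3 lower with an unadjusted p under 0.05, beside 16.1% of all genes tested), with a median log2 fold change of -0.13. Of 15 mitochondrial translation factors 1 fell, TACO1 (-0.34, limma adjusted p = 0.0379), an activator of cytochrome oxidase subunit translation, and the median was -0.13. Of 20 assembly factors 3 fell: ERAL1, which binds the small-subunit rRNA (-0.44, limma adjusted p = 0.00744), MTERF3, listed as MTERFD1 (-0.39, limma adjusted p = 0.034), and MALSU1, a large-subunit assembly factor (-0.34, limma adjusted p = 0.0496). The median of that list was -0.09. Of 17 mitochondrial aminoacyl-tRNA synthetases 1 fell, IARS2 (-0.21, limma adjusted p = 0.0426), with a median of -0.03. Without siHNF4A 2 the called genes numbered 0 in each of these 4 lists. The TACO1 and MALSU1 calls were lost whichever library was left out, the IARS2 call without control 2 or siHNF4A 1 as well, and the MTERF3 call without control 2 as well. With equal sums or quantile normalization TACO1, IARS2, MALSU1 and MTERF3 were not called, which leaves ERAL1.

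Carrier import was measured in 13 genes of the outer gate and the TIM22 route, of which 2 fell and 1 rose. This and the counts that follow stand beside 8.11% of all genes tested called lower and 6.02% called higher. At a mean of at least 200 these shares were 12.1% and 7.87%. The rise was that of TOMM22, the receptor subunit at the centre of the outer membrane gate. It had 559.6 and 634 normalized counts in the controls and 963 and 987 after knockdown (0.71 ± 0.10, limma adjusted p = 0.00175). TIMM9, a chaperone that guides carriers between the membranes, had 725 and 792 against 486 and 517 (-0.60 ± 0.10, limma adjusted p = 0.00491). TOMM20, another receptor, fell by 0.26 on the log2 scale (limma adjusted p = 0.0182), so subunits of 1 gate changed in opposite directions. Of 17 other carriers and channels of the mitochondrial membranes 3 fell: the outer membrane channels VDAC2 (-0.39) and VDAC1 (-0.37) and the serine carrier SFXN1 (-0.36, limma adjusted p = 0.0105). Of 12 nuclear regulators of mitochondrial genes 3 fell, among them ESRRA (-0.40, limma adjusted p = 0.00782) and TFAM, which packages mitochondrial DNA (-0.30, limma adjusted p = 0.0262), with a median of -0.20 for the list. Without siHNF4A 2, 1 of the 12 was called, and ESRRA, TFAM and SFXN1 were lost. TOMM20 was lost without siHNF4A 1 or siHNF4A 2.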

How the data were processed

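RNA was measured in 4 libraries of ESO26 cells, grouped by their titles into siHNF4A (n = 2) and control (n = 2). The series' design text speaks of triplicates, whereas labels and table give 2 per group, so what a replicate stands for is uncertain. Total RNA was column-purified, per the labels' protocols. The authors deposited 1 table of normalized counts, a signal value per gene and library. Bowtie, Bowtie2, Trim Galore, Picard, MACS2 and the build hg19 are named without roles, per the submitters' processing notes. The RNA aligner, counter, annotation, strand setting and normalization are not given in the sources used here. The values are fractional, so no count model was run, and no gene lengths were used, so levels are not compared between genes.

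Values were tested as log2(normalized count + 1) with limma 3.58.1 in R 4.3.3 (lmFit, eBayes with an intensity trend, no block). Genes with a mean of at least 10 over the 4 libraries were tested (15577), Benjamini-Hochberg adjustment ran over all of them, and calls were made at an adjusted p under 0.05. "Fell" and "rose" are used only for called genes. Groups that do not overlap add little to such a call, which was made on the same 4 libraries. Fold changes on this scale understate those of low genes. An exact two-sided permutation test of 2 against 2 libraries cannot go below p = 0.333. Same-numbered libraries were checked for shared deviations (r = -0.0192 over 15577 genes) and were not treated as pairs.

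Members and lists were chosen with earlier results of these data known, so they are described by counts and medians beside all genes tested, with no test over a list. Named genes are HNF4A, the ADP/ATP and phosphate carriers, up to 6 falls and 6 rises per group among called members with a mean of at least 50, other called members, and list genes that were called. Others named, such as the highest log2 fold changes, were chosen after their values were seen. Overlaps and promoters come from RefSeq (GRCh38.p14). The HNF4A and GATA4 peak lists (hg19) and the chromosome conformation libraries were not analysed here, and a planned count of peaks at members was not run for lack of an hg19 annotation. Of 20 member pseudogenes in the table, 18 had a mean under 10, and MRPS31P5 and MRPL45P2 were above it, so that reads shared with MRPS31 and MRPL45 make those values uncertain. Single values of 1 gene of the regulator list and of 1 called carrier are not reported here, and both are included in all counts and medians. Alternatives covered the pseudocount, rescaling, the filter, the variance prior, a replicate block, the adjusted p threshold and each library left out.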

Additional observations from a re-analysis of the deposited data

How the results depend on the processing

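The counts of called genes, which in this section include both falls and rises, moved more than the medians. The main counts were 8 ribosomal protein genes, 9 carriers and 2202 of all genes tested. With every gene tested that was above 0 in any library they were 1, 5 and 726, with an adjusted p under 0.01 they were 1, 7 and 882, and without an intensity trend 0, 0 and 0 (8, 15 and 3524 with an unadjusted limma p under 0.05, and HNF4A at an adjusted p of 0.0919). Leaving out each library gave 0 to 8 ribosomal protein genes, 5 to 12 carriers and 906 to 2413 of all genes, the lowest without siHNF4A 2 in each case and the highest without control 1. The ribosomal protein median log2 fold change of -0.14 ranged from -0.20 to -0.09 over the leave-outs and was -0.10 with equal sums, which moved the median of all genes tested from -0.01 to 0.03. The carrier median of -0.11 was -0.072 with equal sums and -0.15 with a mean of at least 50, and ranged from -0.151 to -0.095 over the leave-outs. None of the 16 genes named by rule changed sign under any setting run. With equal sums or quantile normalization MRPL37 and MRPS30 were not called, and 58 of 76 ribosomal protein genes were below 0 (45.6% of all genes with equal sums and 51.0% with quantile normalization, against 51.0% as deposited). The replicate block gave 8 ribosomal protein genes, 12 carriers (adding SLC25A17, SLC25A36 and SLC25A44) and 2428 of all genes, and the numbers do not pair the libraries. The cause of these moves was not tested. With 2 libraries per group the SE of the ribosomal protein genes named by rule was 0.06 to 0.09 on the log2 scale, the depth in reads is unknown, and genes under a mean of 10 were not tested.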

Other observations

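Some ribosomal protein genes lay close to the start of a gene on the other strand, and whether such pairs share a promoter was not tested. Of the 67 with a RefSeq promoter, 25 (37.3%) had the start of an oppositely oriented gene within 1000 bases, against 25.7% of tested genes with a promoter and 18.2% of the 33 tested carriers with one. Of 17 such neighbours outside the ribosomal protein group that were tested, 2 fell and 1 rose, counts close to the 8.11% and 6.02% of all genes tested. PSMA2, a proteasome subunit beside MRPL32, fell by 0.35 on the log2 scale (limma adjusted p = 0.00668) with MRPL32 at -0.06. HIRA, a histone chaperone beside MRPL40, fell by 0.42 (limma adjusted p = 0.0093) with MRPL40 at -0.11. CYB5RL rose by 0.66 (limma adjusted p = 0.0111) beside MRPL37, which fell, so in this pair the changes had opposite signs. MRPL46 and MRPS11 face each other, with log2 fold changes of -0.20 and -0.29 (limma adjusted p = 0.171 and 0.142). Among carriers, DBF4, a replication kinase subunit beside SLC25A40, fell by 0.63 (limma adjusted p = 0.000747) with SLC25A40 at -0.01, and SLC25A11 fell with its neighbour RNF167 at -0.07 (limma adjusted p = 0.722). These pairs were named after their values were seen.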
